A study of Mus musculus with 4 samples.

Results

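The SOX genes described here are 10 members of a family of transcription factor genes (Sox2, Sox4, Sox5, Sox6, Sox8, Sox9, Sox10, Sox11, Sox13 and Sox21), taken by name from a map of phosphorylated STAT3 (pSTAT3) on mouse chromatin. Of these, 9 had at least 1 reproducible pSTAT3 region and Sox13 had none. In all, 47 of the 12925 regions in the authors' table were listed for them, each for 1 SOX gene only. The chromatin came from cultured cortical oligodendrocyte progenitors (strain C57BL/6), which divide and later mature into myelinating oligodendrocytes. Their medium held PDGF-AA at 10 ng/ml with bFGF at 20 ng/ml, and CNTF, a cytokine of the IL-6 family, was added at 100 ng/ml for 15 min before chromatin immunoprecipitation with an antibody against tyrosine-phosphorylated STAT3. Both pSTAT3 ChIP libraries (replicates 1 and 2) and both inputs had this treatment, so there was no untreated group, and the inputs were not analysed here. Lysates were pooled and the labels name no separate cultures, so differences between the replicates may be technical only. The files hold binding and no expression, so the cell type was not checked against marker levels.

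SOX proteins bind the minor groove of DNA through an HMG box and bend it, and usually act with partner factors. In the oligodendrocyte lineage the SoxE proteins Sox8, Sox9 and Sox10 act in glial specification and myelin gene activation, the SoxD proteins Sox5 and Sox6 restrain differentiation of progenitors, and the SoxB1 protein Sox2 and the SoxC proteins Sox4 and Sox11 are known from progenitor and precursor states. Receptors of the CNTF type activate JAK kinases, which phosphorylate STAT3, and the STAT3 dimer recognises the motif TTCNNNGAA.

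SOX genes with a reproducible region were 9 of 10, where 41.0% of 21887 protein-coding genes had one by the same rule, which counts regions inside a listed transcript or within 25 kb of it. Length bears on such a count, since Sox5 (954 kb) and Sox6 (570 kb) are among the long genes of the genome. All 7 SOX genes under 10 kb (Sox2, Sox4, Sox8, Sox9, Sox10, Sox11 and Sox21) had a region, against 28.7% of 7925 protein-coding genes of that size. A region midpoint lay within 5 kb of a listed transcription start for 6 SOX genes (Sox2, Sox4, Sox5, Sox6, Sox9 and Sox11), where the share over all protein-coding genes was 18.1%. Within 1 kb the number was 5 (the same genes without Sox11), where the share was 12.8%. The regions were unevenly spread among the subgroups: 25 belonged to the SoxD genes Sox5 (10) and Sox6 (15), 10 to the SoxB1 gene Sox2, 6 to the SoxC genes Sox4 (5) and Sox11 (1), 5 to the SoxE genes Sox9 (2), Sox10 (2) and Sox8 (1), and 1 to the SoxB2 gene Sox21. Regions listed with a SOX gene are not always nearest to it. For 21 of the 47, the nearest listed start was that of another gene, such as Gm27611 and Mir1897 beside Sox2 or Sox5os1 in Sox5.

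**Figure D1:**
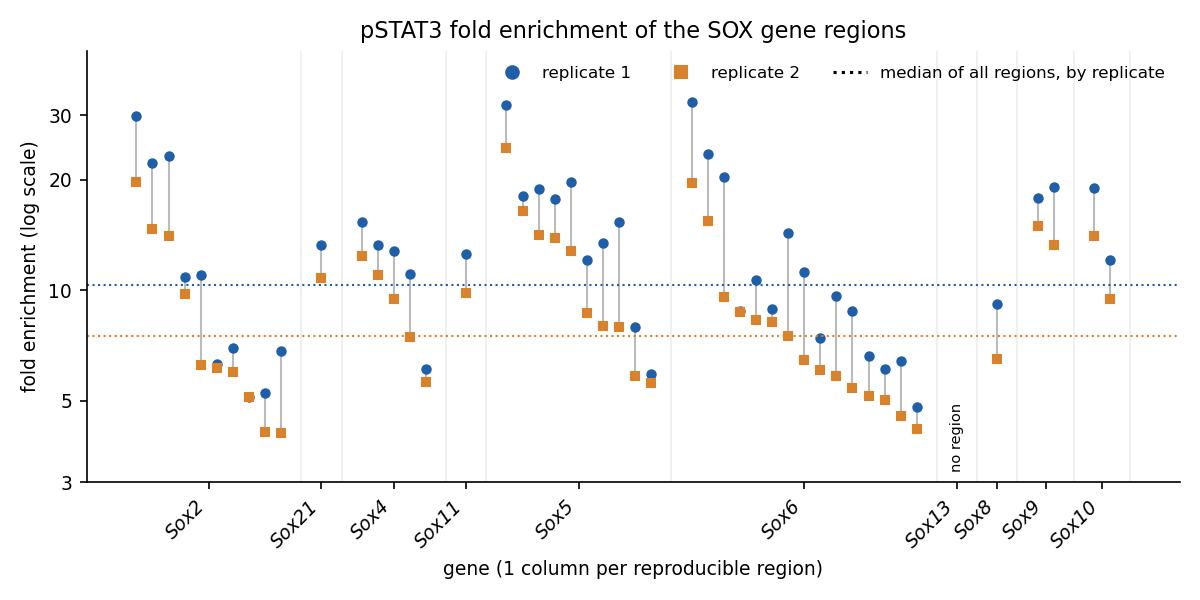
Fold enrichment (log scale) of each reproducible pSTAT3 region of the SOX genes in replicate 1 (circles) and replicate 2 (squares), 1 column per region, with the medians of all regions as dotted lines. Replicate 1 values run from 4.81 to 32.7 and replicate 2 values from 4.08 to 24.4, and the strongest regions are those of Sox5, Sox2 and Sox6.

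The strength of a region was taken as fold enrichment, the authors' ratio of stacked fragments at a peak summit to the local background, and the lower value of the libraries was used for ranking. Over the 47 SOX regions its median was 12.1 (replicate 1) and 8.32 (replicate 2), where all regions had 10.4 and 7.51. The lower fold had a median of 8.32 and an interquartile range of 5.92 to 13.1, against 7.48 and 5.63 to 11.4 over all regions. SOX regions with at least 10-fold enrichment in both libraries were 16 (34.0%), near the 31.1% of all regions. Of the 47, 3 lay in the strongest 10% of all regions and 4 in the weakest 10%. By the irreproducible discovery rate (IDR), the authors' measure of agreement between libraries, 37 (78.7%) were at 0.01 or less, against 79.3% over the table. In strength and reproducibility the SOX regions thus lay close to the table as a whole.

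**Figure D2:**
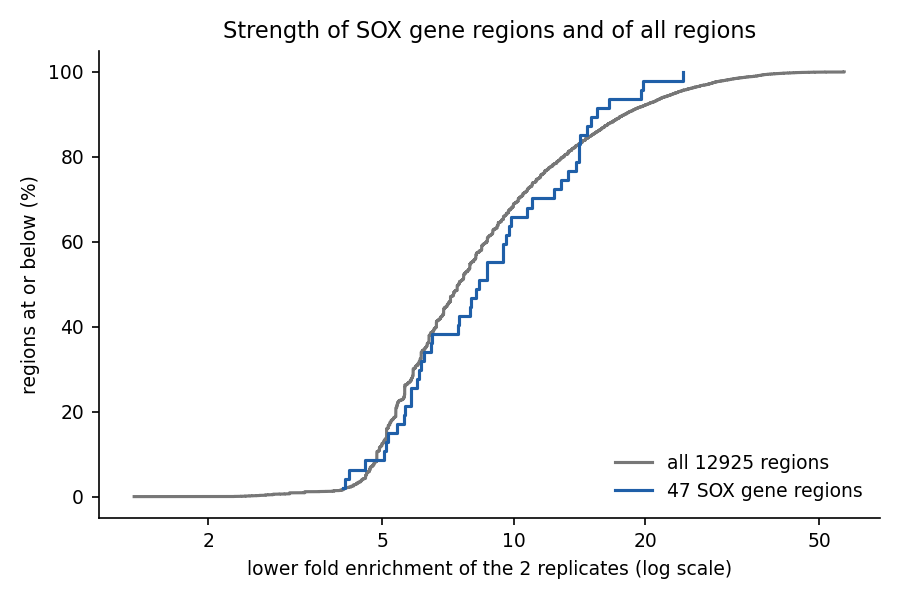
Cumulative share of regions (%) by the lower fold enrichment of the libraries (log scale), for the 47 SOX regions and all 12925 regions. The curves run close together, with medians of 8.32 and 7.48, and the SOX curve ends at 24.4.

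Both libraries had a peak in every one of the 47 regions. Fold enrichment was lower in replicate 2 in 46 of them, and in 95.1% of all regions. The median log2 ratio of replicate 2 to replicate 1 was -0.41 for the SOX regions and -0.41 for all regions, with SOX values from -1.09 to 0.01. Replicate 2 was also the library with the lower background, at 2.91 stacked fragments against 4.72 at the lowest, and the part of this in the ratio was not tested. Across the SOX regions the folds had a Spearman's rho of 0.92 between libraries, as a description over regions of the same 2 libraries (0.91 over all regions). Summits of the libraries were a median of 20.0 bp apart, as over all regions (20.0 bp). They lay within 100 bp of each other in 43 of the 47, against 95.7% of all regions.

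Sox2, a factor of neural stem and progenitor cells, carried 10 regions, more than any other short SOX gene. They spanned 30.1 kb around a gene of 2.47 kb, at a median spacing of 3.27 kb. The strongest lay downstream of the gene at chr3:34653719-34655220, with its midpoint 4.46 kb from the start and 1.26 kb past the transcript's end at the nearest edge. It had 29.9-fold enrichment and 170 stacked fragments in replicate 1, and 19.7-fold and 76 in replicate 2. Next in strength came a region at chr3:34659758-34660242, 9.99 kb downstream of the start, with 22.2-fold and 14.7-fold enrichment. The promoter region at chr3:34648835-34650208 spanned the start, had 23.3-fold and 14.1-fold enrichment, and had its replicate 1 summit 937 bp upstream of the start. In replicate 2 that region held a second, weak peak of 4.93-fold whose summit lay 65 bp downstream of the RefSeq start. Thus the promoter signal had its maximum well upstream of the start in both libraries.

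The other 7 Sox2 regions were weaker, at most 11.0-fold in replicate 1. Within 5 kb of the start there was also a region 3.66 kb upstream with 5.27-fold and 4.12-fold enrichment. The 4 upstream regions had a lower fold of 4.08 to 6.25, and the 5 downstream ones 6.01 to 19.7. The replicate 1 folds overlapped more, reaching 11.0 upstream and 29.9 downstream. All 10 midpoints also lay inside Sox2ot, a long non-coding RNA gene of RefSeq that overlaps Sox2, and the table lists Gm27611 for all 10 and Mir1897 for 9. For scale, 0.164% of the 7925 protein-coding genes under 10 kb had 10 or more regions, which is 13 genes. Of these, 11 lie within 1 Mb of the interferon gene Ifnz on chromosome 4 and share 15 regions among them, and Lrrc4 has listed transcripts reaching over 170 kb, which leaves Sox2. With genes under 10 kb by their listed transcripts as well, the share was 0.151%.

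The bases before the RefSeq start of Sox2 are printed here because the promoter region covers them, as does the replicate 1 peak. The replicate 2 peaks cover only the ends of the stretch, up to 34649771 and from 34649921. Capitals mark ACAAAG, a letter pattern of the kind SOX and TCF proteins bind, on either strand. The match lies in the gap between the replicate 2 peaks. The stretch is chr3:34649745-34649994, plus strand, GRCm38.p6, and has no TTCNNNGAA.
Sox2 promoter: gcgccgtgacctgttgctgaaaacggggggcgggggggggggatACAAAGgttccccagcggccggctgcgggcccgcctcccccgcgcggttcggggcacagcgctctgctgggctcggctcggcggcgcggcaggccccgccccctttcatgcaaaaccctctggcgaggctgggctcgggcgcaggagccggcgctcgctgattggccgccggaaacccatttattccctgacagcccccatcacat

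Sox21, the SoxB2 gene, which counteracts SoxB1 factors in neural progenitors, had 1 region. It lay at chr14:118230370-118231016, 6.34 kb downstream of the start and 2.22 kb past the transcript's end. It had 13.3-fold enrichment and 75 stacked fragments in replicate 1, and 10.8-fold and 41 in replicate 2. Near the Sox21 start each library also had a weaker peak outside the reproducible table, of 5.07-fold in replicate 1 at chr14:118236927-118237389 and of 3.05-fold in replicate 2 at chr14:118236693-118236843, which did not overlap each other.

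**Figure D3:**
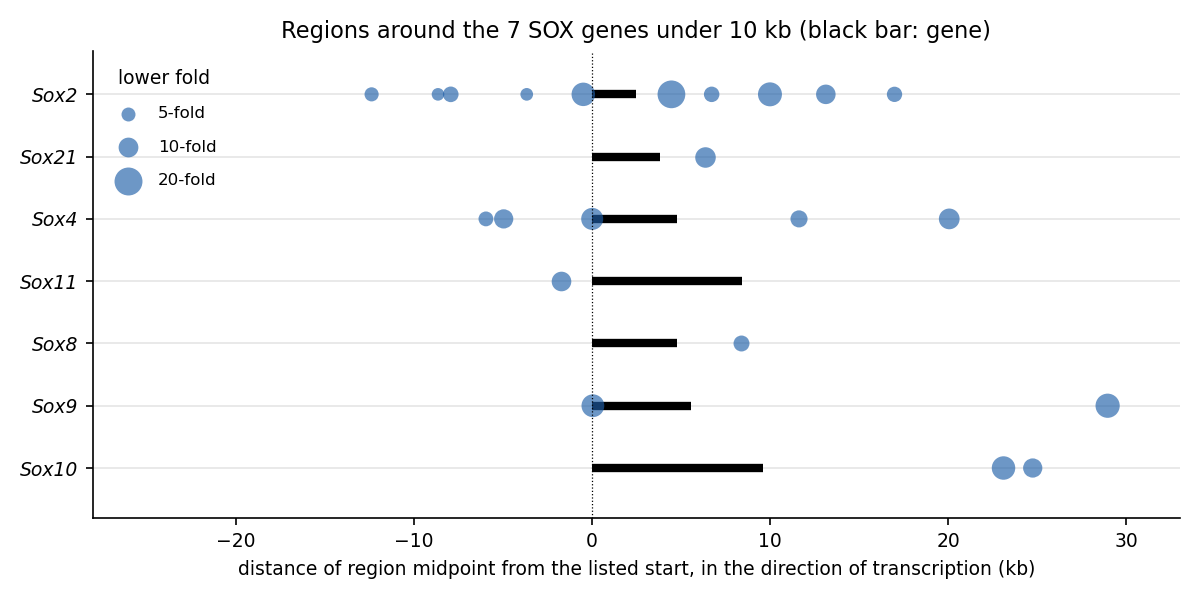
Position of reproducible pSTAT3 regions around the 7 SOX genes under 10 kb, as distance of the midpoint from the listed start in the direction of transcription (kb), with the circle's area proportional to the lower fold and the gene as a black bar. Sox2 has regions on both sides, from 12.4 kb upstream to 17.0 kb downstream, while those of Sox10 lie only downstream, at 23.1 and 24.7 kb.

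Sox4 and Sox11, the SoxC genes, are active in immature neural cells. At Sox4 a region spanned the start at chr13:28953215-28954180, with its midpoint 16 bp from it. Enrichment there was 15.4-fold with 90 stacked fragments in replicate 1 and 12.4-fold with 49 in replicate 2, and the summits lay 137 and 88 bp downstream of the RefSeq start. A region 4.95 kb upstream had 12.8-fold and 9.47-fold enrichment, and one 5.95 kb upstream 6.12-fold and 5.63-fold. Downstream of the gene, regions at 11.6 and 20.1 kb from the start had 11.1-fold and 7.46-fold, and 13.3-fold and 11.0-fold. The former lay 961 bp from a start of the non-coding gene Gm26735. Sox4 values thus ran from 5.63-fold to 15.4-fold over the 5 regions and both libraries. The Sox4 promoter is shown because the region covers it in full, as does the replicate 1 peak. The replicate 2 peaks cover only its ends, up to 28953757 and from 28953913. It is chr13:28953714-28953949, minus strand, GRCm38.p6, without the 14 bases that lie after a listed start, and holds neither TTCNNNGAA nor the SOX-type patterns.
Sox4 promoter: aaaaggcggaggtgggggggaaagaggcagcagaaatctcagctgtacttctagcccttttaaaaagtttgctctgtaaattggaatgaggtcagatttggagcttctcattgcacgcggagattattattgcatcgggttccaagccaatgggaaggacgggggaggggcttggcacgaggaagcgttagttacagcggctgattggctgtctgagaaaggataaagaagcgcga

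Sox11 had a single region at chr12:27344144-27344453, 1.72 kb upstream of the listed start. It had 12.6-fold enrichment with 87 stacked fragments in replicate 1, and 9.85-fold with 46 in replicate 2. At the Sox11 promoter itself each library had a weaker peak that is not in the reproducible table. Those peaks had 5.07-fold enrichment with the summit 51 bp upstream of the RefSeq start in replicate 1, and 4.10-fold with the summit 28 bp upstream in replicate 2. The highest signal at Sox11 was therefore off the promoter in both libraries.

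Sox5 held the strongest of the 47 regions by the lower fold. It lay at chr6:144203794-144204513 and covered a pair of internal transcription starts, with its midpoint 96 bp upstream of one and 274 bp downstream of the other. Enrichment was 32.0-fold with 185 stacked fragments in replicate 1 and 24.4-fold with 96 in replicate 2, and the summits lay 5 bp apart. This value was at the 95.7 percentile of all regions by the lower fold. Another group of 4 listed starts lay 5.30 to 5.42 kb further upstream, so the same region is also inside the transcripts that begin there. The long Sox5 transcripts, whose starts are 11.4 kb from the nearest region, had no region at the start. That nearest region had 15.4-fold and 7.94-fold enrichment. Replicate 1 had a weak peak outside the reproducible table near those starts, of 3.90-fold at chr6:144781363-144781566. Another, of 3.79-fold at chr6:144209472-144209636, lay at the group of 4 starts upstream of the strongest region. Neither overlapped a replicate 2 peak. The most downstream group of 4 starts had none within 5 kb either, the nearest being 5.51 to 5.53 kb away with 17.7-fold and 13.9-fold enrichment. Of 12 listed Sox5 starts, 2 had a region within 1 kb.

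The remaining Sox5 regions lay inside transcripts. A region at chr6:144056637-144057688 had 18.1-fold and 16.5-fold enrichment, and one at chr6:144098230-144098546 had 19.8-fold and 12.8-fold. A pair less than 1 kb apart lay near the start of the intronic transcript Sox5it, with 18.9-fold and 14.2-fold, and 12.1-fold and 8.70-fold. In all, 5 of the 10 Sox5 regions had at least 10-fold enrichment in both libraries. The weakest, at chr6:144312988-144313581, had 5.91-fold and 5.60-fold. The gene had 1.05 regions per 100 kb, where the median over 557 protein-coding genes longer than 300 kb was 0.331, and 74 of those genes were denser.

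Sox6 had the most regions, 15, a number that 0.0274% of protein-coding genes reached (10 or more were listed for 0.206%), and 2.63 per 100 kb of gene, with 9 of the 557 long genes denser. Of the 15, 11 lay 94.5 to 265 kb downstream of the most downstream listed start. The strongest was among them, at chr7:115564024-115565198, with 32.7-fold enrichment and 219 stacked fragments in replicate 1 and 19.6-fold and 93 in replicate 2. The region at chr7:115729821-115730580 followed with 23.6-fold and 15.5-fold. At chr7:115615687-115616342 the libraries differed most, with 20.4-fold in replicate 1 and 9.58-fold in replicate 2, a log2 ratio of -1.09. Only 2 Sox6 regions had at least 10-fold enrichment in both libraries. A group of 5 regions lay within 27.2 kb, from 115663388 to 115690562, with a lower fold of 4.20 to 8.32, where the median of all regions was 7.48.

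**Figure D4:**
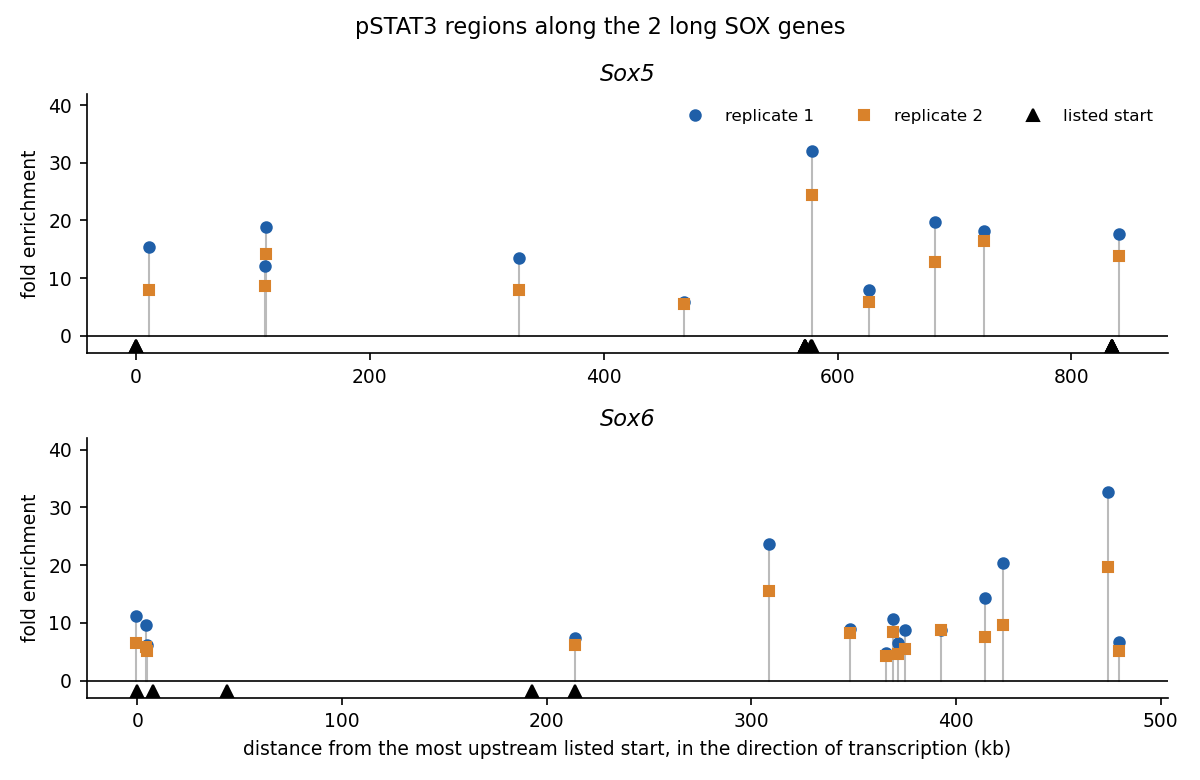
Fold enrichment of regions along Sox5 and Sox6 in replicate 1 (circles) and replicate 2 (squares), against distance from the most upstream listed start (kb), with listed starts as triangles. In Sox5 the highest region (32.0 and 24.4) sits over internal starts, and in Sox6 the highest (32.7 and 19.6) sits far downstream of every listed start.

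None of the regions within 5 kb of a Sox6 start passed 11.2-fold in either library. A region of 7.44-fold and 6.07-fold enrichment lay 418 bp upstream of the start at 115824707 by its midpoint, but its strongest peaks were 767 bp apart between libraries. Their summits lay 848 bp upstream of the RefSeq start in replicate 1 and 81 bp upstream in replicate 2. The most upstream listed start, at 116038744, had a region 746 bp upstream with 11.2-fold and 6.46-fold. By RefSeq the gene reaches further, to 116040776, so the midpoint of that region lies inside it. Near the start at 116031047, a pair of regions 2.80 and 3.60 kb upstream had 6.11-fold and 5.04-fold, and 9.68-fold and 5.83-fold. The promoter at 115824707 is printed because replicate 2 had its summit within it. Capitals mark ACAAAG and AACAAT on either strand, of which it holds 2 matches each. It is chr7:115824711-115824960, minus strand, GRCm38.p6, and has no TTCNNNGAA.
Sox6 promoter: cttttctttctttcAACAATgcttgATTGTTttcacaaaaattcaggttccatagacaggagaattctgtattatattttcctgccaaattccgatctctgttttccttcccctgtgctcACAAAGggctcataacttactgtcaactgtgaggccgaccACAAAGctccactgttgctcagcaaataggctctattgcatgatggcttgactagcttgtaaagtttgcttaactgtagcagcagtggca

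Sox13, the third SoxD gene, had no reproducible region. The nearest one was 53.6 kb away, nearest to a start of Kiss1, with 5.50-fold and 4.73-fold enrichment. Both libraries nevertheless had an overlapping weak peak at the Sox13 start. In replicate 1 it had 18 stacked fragments and 3.32-fold enrichment with the summit 68 bp downstream of the RefSeq start, and in replicate 2 it had 12 fragments and 3.33-fold with the summit 18 bp downstream. Replicate 1 had 4 more peaks in or within 25 kb of Sox13, the strongest of 4.72-fold, 1.41 kb downstream of the start. All of these peaks were weaker than the median region in either library (10.4 and 7.51).

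Among the SoxE genes, Sox9 had its promoter covered. The region at chr11:112782026-112782532 spanned the start, with the midpoint 55 bp and the replicate 1 summit 2 bp downstream of it. It had 19.1-fold enrichment and 108 stacked fragments in replicate 1, and 13.3-fold and 51 in replicate 2. The other Sox9 region lay 29.0 kb downstream of the start, at chr11:112810260-112812090, with 17.9-fold and 15.0-fold. Which of them was stronger depended on the library, since replicate 1 put the promoter first and replicate 2 the distal region.

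Sox10, the main activator of myelin genes in this lineage, had no region at its own start in the table. Its regions were at chr15:79141060-79141709 (19.0-fold and 14.1-fold) and chr15:79139567-79139922 (12.1-fold and 9.47-fold), 13.2 and 15.0 kb past the transcript's end. The former lay 33 bp from a start of Polr2f, an RNA polymerase subunit gene, and the latter 469 bp from a start of 1700088E04Rik. Both therefore count as promoter regions of neighbouring genes as much as Sox10 regions. Sox8, the weakest of the 9, had 1 region at chr17:25561283-25562391, 8.38 kb downstream of the start, with 9.18-fold and 6.51-fold enrichment. No other start was nearer to it. At the RefSeq start of Sox8 only replicate 1 had a peak, of 2.53-fold.

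Ordered by the lower fold of the strongest region, the genes ran Sox5 (24.4), Sox2 (19.7), Sox6 (19.6), Sox9 (15.0), Sox10 (14.1), Sox4 (12.4), Sox21 (10.8), Sox11 (9.85) and Sox8 (6.51). Most neighbours in this order had overlapping values. The range over the libraries was apart only between Sox6 (19.6 to 32.7) and Sox9 (15.0 to 17.9), and between Sox11 (9.85 to 12.6) and Sox8 (6.51 to 9.18). The last 4 places were the same in each library, and the first place went to Sox6 in replicate 1 and to Sox5 in replicate 2.

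By place, 6 SOX regions lay within 1 kb of a start of their gene, 22 further inside a transcript, 7 upstream and 12 downstream. The median lower fold was 12.9 at starts, 8.09 inside, 5.63 upstream and 10.3 downstream. Of the 7 upstream regions, 4 belonged to Sox2 and 2 to Sox4. Medians by place were not computed over all regions. With every listed gene counted, 11 SOX regions (23.4%) lay within 1 kb of some start, against 23.9% of all regions. A further 21 (44.7%) were inside a listed transcript, against 40.5%, and 15 (31.9%) outside, against 35.6%. The placement of SOX regions was thus near that of the whole table.

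RefSeq promoter windows of 300 bases, from 250 before to 50 after a start, were matched for 8 of the 10 genes, in 13 windows of which 6 belong to Sox6. Sox9 and Sox10 were not matched. A reproducible region overlapped 3 of the windows (Sox2, Sox4 and 1 of Sox6), where the share over 32851 windows was 7.57%. Replicate 1 had a peak in 8 (22.6% of all windows) and replicate 2 in 6 (12.9%). The STAT motif TTCNNNGAA, which reads the same on both strands, was in 3 windows of 2 genes, Sox13 and Sox6, and in 8.30% of all windows. Its stricter form TTCCNGGAA, which is contained in it, was in none of the 13 and in 1.15% of all. Among all windows that overlapped a reproducible region 15.0% held TTCNNNGAA, and 7.75% of the others. Of the SOX-type patterns, ACAAAG was in 6 of the 13 windows (18.7% of all), of which 5 are Sox6 windows and 1 is that of Sox2, and AACAAT in 1 (10.7% of all).

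The SOX windows with the STAT motif are shown because none of them overlapped a reproducible region, although both libraries had weak peaks at 2 of the 3. Capitals mark TTCNNNGAA. In Sox6, at chr7:116031117-116031145 (minus strand, GRCm38.p6), the motif starts 88 bases before the start at 116031047 and lies inside a peak of each library, of 2.98-fold in replicate 1 and 3.52-fold in replicate 2. The summits there were 81 and 133 bp upstream of the start. The other Sox6 match, at chr7:115846143-115846171, had no peak in its window. In Sox13, at chr1:133424406-133424434, the motif lies 142 and 101 bp beyond the edges of the peaks at the start. A letter match is a description and not evidence of binding.
Sox6 upstream start: agaaggtgggTTCGGTGAAtaaaaaggtc
Sox6 inner start: ctatgttttcTTCGTGGAAgggtgtggag
Sox13 start: cggagtggctTTCGCAGAAgcgagcggcg

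Beyond the table, the peak lists held 121 replicate 1 peaks and 89 replicate 2 peaks in or within 25 kb of the 10 genes, and every gene had at least 1 in each library. By that measure 71.3% of protein-coding genes had a peak in replicate 1 and 60.0% in replicate 2. Peaks inside a reproducible region were 48 (39.7%) and 53 (59.6%), against 30.8% and 50.7% of all peaks. Of the other 73 and 36 peaks, 31 and 30 overlapped a peak of the other library. The share over all peaks outside the table was not computed. These counts, and those by gene that follow, can therefore not be read as a trait of SOX genes. Sox5 had many single-library peaks, 13 in replicate 1, while Sox6 had 9 replicate 1 peaks outside the table that replicate 2 shared. The strongest peak outside the table, at chr13:28948573-28948812 near the end of Sox4, had 8.24-fold enrichment in replicate 1 and overlapped a replicate 2 peak of 3.54-fold.

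**Figure D5:**
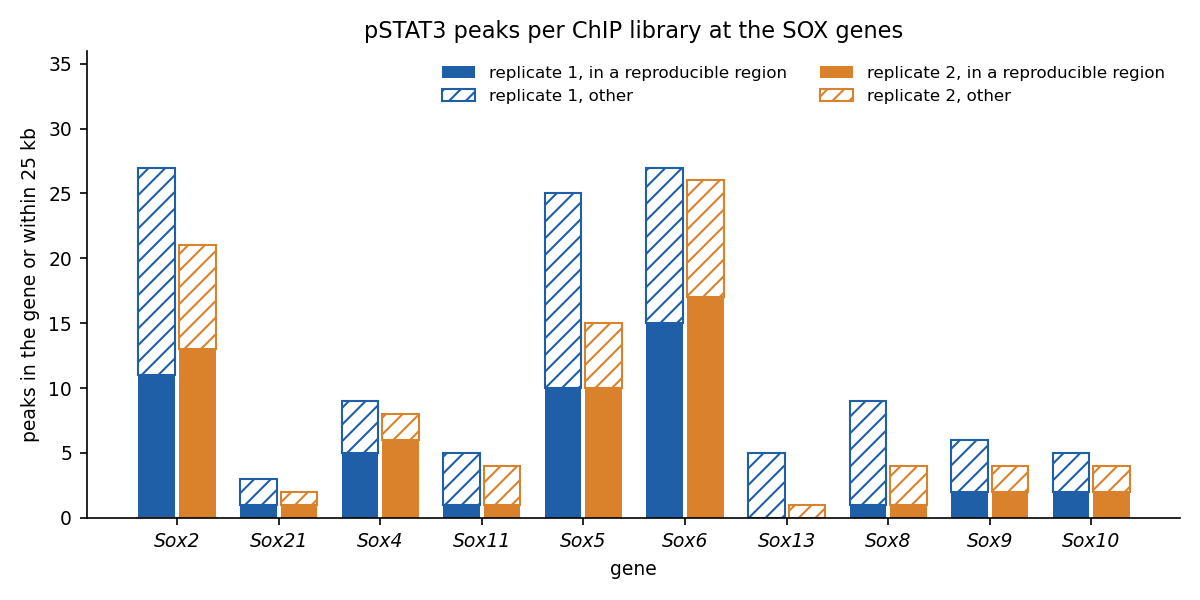
Number of pSTAT3 peaks in each SOX gene or within 25 kb of it, per ChIP library, split into those inside a reproducible region (filled) and the others (hatched). Sox2 and Sox6 each have 27 replicate 1 peaks, and Sox13 has 5 and 1, none of them in a reproducible region.

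The rest of the SOX family served as a comparison. Of 10 other members (Sox1, Sox3, Sox7, Sox12, Sox14, Sox15, Sox17, Sox18, Sox30 and Sry), 4 had a region, where the share over all genes was 41.0%, and 1 had one within 5 kb of a start. That gene was Sox12, the remaining SoxC gene, with 8.29-fold and 4.81-fold enrichment 991 bp from its start. The strongest of its 3 regions, of 18.2-fold and 14.1-fold, lay 16.7 kb from its start and inside Zcchc3. Sox7, Sox18 and Sox30 had regions 19.2, 5.68 and 25.0 kb away, with 19.8-fold and 13.6-fold, 12.9-fold and 7.75-fold, and 24.6-fold and 16.4-fold. The Sox30 region lay inside Thg1l.

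Genes that SOX proteins act with or regulate in this lineage were counted from a list of 24. Of these, 20 had a region and 12 had one within 5 kb of a start, where the shares over all genes are 41.0% and 18.1%. The strongest within 5 kb were Cnp (19.9-fold and 17.4-fold, 4.15 kb upstream), a myelin enzyme gene, and Zfp24 (17.6-fold and 15.6-fold, 204 bp downstream), a zinc finger gene needed for myelination. Cspg4 (20.2-fold and 13.6-fold), the progenitor proteoglycan NG2, and Nfia (19.2-fold and 13.3-fold), a gliogenic partner of Sox9, came next. The Cnp region lay inside the neighbouring gene Ttc25.

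Snd1 and Ifnz had the same number of regions as Sox6. At the strongest of its 15, Snd1 had 34.6-fold and 26.0-fold enrichment, and Ifnz 11.7-fold and 9.22-fold, where Sox6 had 32.7-fold and 19.6-fold. Snd1 (455 kb) is a long gene as Sox6 is, and Ifnz is short (1.46 kb). The counts rest on 1 set of regions from 2 libraries.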

How the data were processed

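pSTAT3 ChIP-seq peaks of 2 ChIP libraries (replicates 1 and 2) and the authors' table of reproducible regions were used. The submitters' processing notes name CASAVA 1.8, Bowtie2, MACS2 and the build GRCm38.p3. Options and read numbers were not found in these sources, and depth is thus unknown beyond the peak caller's background. The lists held 42189 and 26649 peaks.

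Per the file headers, the deposited lists give the pileup signal at the summit and the fold enrichment, a ratio to local background computed by the authors. Columns with damaged headers hold -log10 p and -log10 q, as deposited: the former equals an upper Poisson tail of pileup and background within 0.1% for 99.607% and 99.985% of peaks. In the region table, the IDR (at most 0.05) stands in the deposited adjusted p-value column. The authors' columns headed fold enrichment and pileup in that table are identical and match the mean -log10 p of the libraries (within 0.001 in 95.8% of regions), so they were not used. These values are the authors' own and only describe and rank peaks.

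A region was given the strongest overlapping peak (at least 1 bp) of each library. Its midpoint was located against the listed Ensembl transcripts. Positions are 1-based. Gene symbols (or unambiguous synonyms) were matched to 21887 RefSeq protein-coding genes (GRCm38.p6, a later patch of the same assembly). Promoter sequences are from RefSeq, GRCm38.p6. No genome sequence was used, so motifs in regions away from promoters were not searched. The SOX-type patterns (ACAAAG and AACAAT), the counts over short and long genes and the peaks outside the table were added after the data were seen.

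No test was made, since there is 1 condition: counts stand beside the share over all genes or regions where it was computed. The members and gene lists were chosen with earlier results of these data known. Named were all members with their strongest regions and those within 5 kb of a start, the 5 strongest member regions, other SOX genes with a region, up to 4 partner genes with the strongest regions within 5 kb, and 3 genes closest to Sox6, of which 1 is not reported here. Other regions were named after their values were seen. Alternatives were an IDR of 0.01, other overlaps, windows, strength measures and a -log10 q of 10, and each library alone. Overlap finding and the choice of the strongest overlapping peak were tested on simulated data, and the other steps were not. Software was matplotlib 3.10.9, pandas 2.3.3, numpy 2.4.6 and scipy 1.17.1 under Python 3.11.15.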

Additional observations from a re-analysis of the deposited data

How the results depend on the processing

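Of the counts, the 9 SOX genes with a region stayed at 9 with an IDR of 0.01 or below. They also stayed at 9 with a -log10 q of at least 10 in both libraries. The share over all genes under these limits was not computed. With either library's peaks alone the count was 10, where 71.3% (replicate 1) and 60.0% (replicate 2) of protein-coding genes had a peak. The 47 regions became 37 under the IDR limit, which 79.3% of all regions met, and 39 under the -log10 q limit. They became 26 when only regions whose nearest listed start belongs to a SOX gene were kept. For the -log10 q limit the share over all regions was not computed, so the 39 has no background beside it. With the peaks of one library in place of the table the count was 89 to 121. A start with a region no more than 5 kb away was found for 6 SOX genes, and 9 to 10 with one library's peaks, where replicate 1 alone (without replicate 2) gave 10. The share over all genes within 5 kb was not computed for one library's peaks, so those counts have no background beside them. The median strength of 8.32 was 12.1 with the higher fold, and 8.32 to 12.1 with one library, the higher value being replicate 1. By percentile among all regions, the median SOX region was at 57.6 by the lower fold, 60.1 by replicate 1, 57.1 by replicate 2 and 59.9 by -log10 p. SOX genes with the STAT motif were 2 with TTCNNNGAA and 0 with TTCCNGGAA. Regions near starts (6) did not change when replicate 1 summits stood for midpoints, nor did the log2 ratio of the libraries (-0.41) with the nearest summit. No paired analysis was possible because the inputs, which share replicate numbers with the ChIP libraries, were not analysed here and no groups were compared. The unknown depth limits what can be said of Sox13, whose peaks hold 12 to 26 fragments.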

Other observations

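At 9 of the 10 genes, all but Sox21, the space between the flanking protein-coding genes held regions that the table does not list for the SOX gene. This count was chosen after the data were seen, and the share over all genes was not computed. The spaces ran from 77.4 to 1958 kb, and a wider space holds more regions at the same density. The count can therefore not be read as a trait of SOX genes. Around Sox9, a stretch of 1519 kb between Gm11677 and Slc39a11 held 22 regions, of which 20 are not listed for Sox9. The strongest of those, at chr11:112840157-112840924, lay 52.4 kb past the gene and had 25.6-fold and 15.6-fold enrichment, above the 19.1-fold and 13.3-fold of the Sox9 promoter. Around Sox2, 1673 kb held 30 regions, 20 of them not listed for Sox2, and the strongest of these lay 496 kb away at chr3:35148759-35150258 with 29.9-fold and 22.5-fold. Sox11 had 14 such regions in 1958 kb, among them one at chr12:27575536-27576600, 233 kb from the gene, with 32.0-fold and 25.9-fold enrichment, against the 12.6-fold and 9.85-fold of its listed region. In the 77.4 kb between Polr2f and Pick1, Sox10 had 3, the strongest 37.0 kb from the gene on its upstream side at chr15:79201455-79202480, with 29.8-fold and 21.9-fold, above both listed Sox10 regions. Regions per 100 kb, counting listed ones that lie in the space, were 3.88 around Sox10 and 2.44 around Sox8. These values rest on 3 regions, none of them listed for Sox10, and on 2 regions in 81.9 kb. The value was 1.79 around Sox2 and around Sox6, 1.45 around Sox9 and 0.972 around Sox21 (1 region). It was 0.865 around Sox4, 0.766 around Sox11 and 0.728 around Sox5, against 0.480 over all chromosomes. Around Sox13 the value was lower, at 0.447, with 1 region in 224 kb. Which gene any of these regions acts on was not tested.

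The table also lists 11 short genes near Ifnz on chromosome 4 with 10 to 15 regions each, drawn from the same 15 regions, so counts of regions per gene repeat regions where genes crowd together.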
